A study of Mus musculus with 20 samples.

Results

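Gene expression after 4 h in AICAR was compared with that of untreated cells at 0 h in mouse embryonic fibroblasts that lack AMP-activated protein kinase (AMPK). The comparison rests on 6 of the 20 Affymetrix MG-430 PM arrays of the time course, 3 labelled as 4 h in 1 mM AICAR and 3 labelled as the control at 0 h. All 6 come from SV40-immortalized fibroblasts, a line kept dividing by the viral T antigen, with both AMPK catalytic subunit genes deleted (Ampkα1/α2 double knockout, the products of Prkaa1 and Prkaa2), so that controls and treated cells share the deletion and the immortalization. The remaining arrays cover 1, 2, 8, 12 and 24 h in AICAR, and those at 2 h and 12 h were used to place the 4 h values in time. Of the 45141 probe sets on the array, 28898 carry a single gene symbol, and 12944 genes were tested after a filter on low signal, each through its brightest probe set.

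AICAR is a nucleoside that cells take up through adenosine transporters and phosphorylate, by adenosine kinase, to ZMP, an AMP mimic. ZMP activates AMPK, the kinase that senses falling cellular energy, and AICAR is widely used for that purpose. It also acts on other AMP-sensitive enzymes and on nucleotide metabolism, and cells without AMPK isolate those other responses. The question set by the design was which transcripts respond to AICAR when AMPK is absent. No vehicle array at 4 h and no wild-type array was analysed here, so 4 h in AICAR and 4 h in culture cannot be told apart.

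The probe set of Prkaa1, which encodes AMPKα1, read 8.23, 8.21 and 8.11 on the log2 scale in the control arrays and 7.94, 8.13 and 8.14 at 4 h. That of Prkaa2, which encodes AMPKα2, read 5.59, 5.54 and 5.76 in the controls and 5.86, 5.73 and 5.67 at 4 h. Where these probes lie with respect to the deletions is unstated in the labels, so neither value checks the knockout. Array-control probe sets with no mouse target set a background level, and 95% of them read below 5.08. Of the fibroblast markers, Vim (13.20) and S100a4 (12.47) were far above it in the controls, Col3a1 (8.42) and Col1a1 (7.48) were above it, and Col1a2 (4.23), Lum (4.17) and Thy1 (4.94) were below it. Of the markers of other cell types, Krt19 (9.82), an epithelial keratin, was the brightest. In the controls, 7 of 8 skeletal muscle markers were above the background level, led by Des (6.76) and Acta1 (6.68), as were 4 of 8 epithelial ones, with Epcam at 6.37, and 1 of 4 adipocyte ones, Pparg (6.14). Above it among 8 macrophage markers were 2, Cd14 (6.38) and Csf1r (5.77), while Ptprc (4.05) was below. Of 8 endothelial markers 2 were above, Kdr being the brighter (6.26), and Pecam1 (4.75) was below. The same numbers of each list were above the background level at 4 h, and 7 of 10 fibroblast markers were above it at both times. AICAR 4 h replicate 2 had the smallest interquartile range of all 20 arrays (2.77) and the largest difference between the 3′ and 5′ actin probe sets (0.689, against 0.383 to 0.458 in the controls), a sign of RNA quality. Nothing in the labels says that replicates were grown separately, and the p-values therefore describe only how these arrays vary, which may be technical variation.

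At 4 h, 1564 of 12944 genes differed from 0 h (12.1%; limma, Benjamini-Hochberg adjusted p under 0.05). Of these, 671 rose (5.18% of the genes tested) and 893 fell (6.9%). Most changes were small, with a median of 0.39 on the log2 scale among the genes that rose and -0.42 among those that fell. Only 46 genes changed at least 2-fold, 10 upwards and 36 downwards. The median over all genes was 0.008. The 4 h arrays lay wholly above or wholly below the control arrays for 3820 of all 12944 genes (29.5%), and for 1545 of the 1564 that passed the test. The counts depended on single arrays, with 904 genes called without control replicate 1 and 940 without control replicate 2, where 410 and 453 fell. Without control replicate 3, 417 rose and 982 fell. The balance also moved with scaling, to 337 up and 761 down after median centring and 1221 up and 1029 down with the interquartile range of the arrays in the model.

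**Figure D1:**
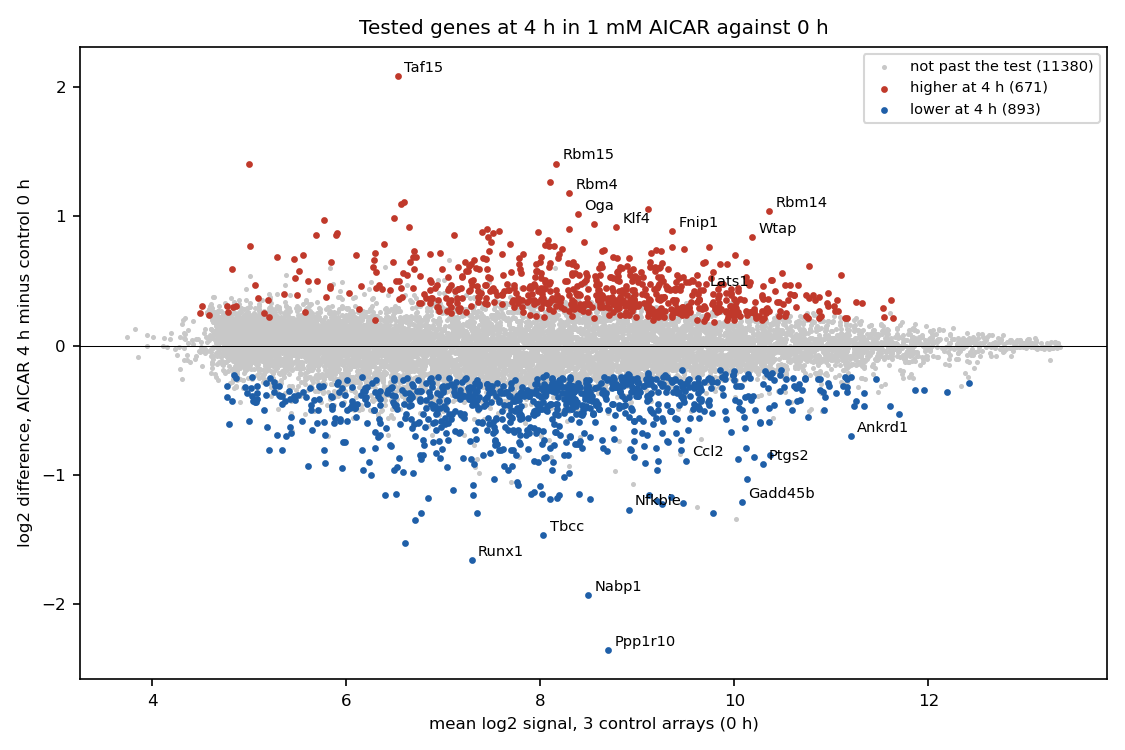
Each point is 1 of 12944 tested genes, with the mean log2 signal of the 3 control arrays on the horizontal axis and the log2 difference between AICAR 4 h and control 0 h on the vertical axis. Red points (671) rose and blue points (893) fell in limma's test, and the largest named changes are those of Taf15 upwards and Ppp1r10 downwards.

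The deepest fall was in Ppp1r10, which encodes PNUTS, the nuclear subunit of protein phosphatase 1 that acts at the end of transcription units. Its signal was 8.81, 8.71 and 8.58 in the controls and 6.05, 6.75 and 6.22 at 4 h, with a wide gap between the groups. The difference was -2.36 ± 0.16 (SE; limma adjusted p = 3.35e-07), a 5.13-fold fall, and its other probe set fell by 2.99. Nabp1, a single-stranded DNA-binding protein of the DNA repair machinery, read 8.62, 8.51 and 8.35 in the controls and 5.67, 7.22 and 6.79 at 4 h. It fell by 1.93 ± 0.23 (SE; limma adjusted p = 4.82e-05), and all 3 of its probe sets fell. Replicate 1 was the lowest of the 4 h arrays for Nabp1, and the same array was the lowest for 446 of the 893 genes that fell (49.9%), against 276 for replicate 2 and 171 for replicate 3. Tbcc, a tubulin folding cofactor, fell from 8.10, 8.05 and 7.94 to 6.25, 6.83 and 6.60, by 1.47 ± 0.12 (SE; limma adjusted p = 8.88e-07). Runx1, a transcription factor, fell from 7.0, 7.32 and 7.55 to 5.77, 5.24 and 5.90, by 1.66, although its 6 probe sets ranged from -1.66 to -0.01.

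Transcription elongation genes moved both ways. RNA polymerase II pauses soon after initiation until P-TEFb, the kinase pair of CDK9 and cyclin T1, releases it, and HEXIM1 holds P-TEFb inactive together with the 7SK RNA. Of 16 tested genes of elongation and pause control, 4 rose and 4 fell, beside 5.18% and 6.9% of all genes, with a list median of 0.04. Hexim1 fell from 9.34, 9.22 and 9.18 in the controls to 7.52, 8.29 and 8.24 at 4 h. The groups did not overlap, and the difference was -1.23 ± 0.16 (SE; limma adjusted p = 7.5e-05); its second probe set fell by 0.64. Cdk9 rose from 10.59, 10.59 and 10.52 to 11.01, 11.06 and 11.06, by 0.47 ± 0.06 (SE; limma adjusted p = 0.000107). A dimmer Cdk9 probe set read -0.05. Ccnt1, which encodes cyclin T1, rose by 0.57 with 4 h values of 10.03, 9.32 and 9.49 against controls between 9.02 and 9.07. Aff4, the scaffold of the super elongation complex, rose by 0.27, and Cdk13, another kinase of the polymerase tail, by 0.42, although a dimmer Cdk13 probe set read -0.60. Ell2, an elongation factor of the same complex, fell by 0.53, and Nelfe, a subunit of the pausing factor NELF, by 0.33. Without control replicate 1, Ccnt1 (0.57), Aff4 (0.21), Cdk13 (0.37), Ell2 (-0.48) and Nelfe (-0.29) did not pass. The same held for Ccnt1 (0.56), Ell2 (-0.49) and Nelfe (-0.30) without control replicate 2, Aff4 (0.22) and Cdk13 (0.34) without AICAR 4 h replicate 2, Ccnt1 (0.36) without replicate 1 and Ell2 (-0.48) without replicate 3. Of the list, 1 gene rose and 2 fell without control replicate 1. Ccnt1, Aff4 and Nelfe were named after their values were seen, to account for the whole list.

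Of the 10 genes that rose at least 2-fold, 4 encode RNA-binding proteins of the FET and RBM families, Taf15, Rbm15, Rbm4 and Rbm14. The others were Cep295nl (1.41, from a control mean below the background level), Zfp948 (1.27), Zc3h12c (1.11), Zbtb7a (1.10), Zfp367 (1.06) and Oga (1.02). Other probe sets of Zfp948 (0.06), Zc3h12c (0.13), Oga (0.12) and Zbtb7a (0.08) did not pass. Except for that of Oga, these had control means below the background level (4.98, 4.85 and 4.75). Further probe sets of Oga passed and rose by 0.62 and 0.78. The FET and RBM proteins bind nascent RNA and act in splicing and in RNA modification. Of 13 tested, 4 rose and 2 fell, beside 5.18% and 6.9% of all genes. Taf15, a FET protein, rose from 6.68, 6.80 and 6.12 to 9.23, 8.15 and 8.5. The difference of 2.09 ± 0.28 (SE; limma adjusted p = 9.88e-05) was the largest rise of any named gene. Rbm15, which brings the RNA m6A methyltransferase to its targets, rose from 8.18, 8.18 and 8.12 to 9.65, 9.46 and 9.61, by 1.41 ± 0.10 (SE; limma adjusted p = 3.35e-07). Wtap, a core subunit of the same methyltransferase complex, rose from 10.15, 10.27 and 10.13 to 11.14, 11 and 10.93, by 0.84, while Rbm15b, a paralog of Rbm15, fell by 0.76 in its brightest probe set and read 0.13 in another. That other Rbm15b probe set had a control mean of 5.05, just below the background level. Rbm4, a splicing regulator, rose from 8.42, 8.33 and 8.14 to 9.63, 9.37 and 9.42, by 1.18 ± 0.12 (SE; limma adjusted p = 1.24e-05). Rbm14, a transcriptional coactivator found in paraspeckles, rose from 10.48, 10.33 and 10.27 to 11.47, 11.29 and 11.42. All 5 of its probe sets rose, between 0.90 and 1.07, and of these the 2 that are not of the _x_ type, whose probes may match other transcripts, rose by 0.97 and 0.90. Neat1, the long RNA that scaffolds paraspeckles, fell by 0.96 (limma adjusted p = 0.0156) and did not pass without control replicate 1 (-0.82) or without AICAR 4 h replicate 1 (-0.56). Cirbp, a cold-inducible RNA-binding protein named after its values were seen, fell by 0.34 and passed when control replicate 3 was left out but not when any other of the 6 arrays was (-0.38 to -0.24).

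Splicing regulators changed less. Of 15 SR proteins and their kinases, 3 rose and 2 fell, beside 5.18% and 6.9% of all genes. Clk3 and Clk4, kinases that phosphorylate SR proteins, rose by 0.77 and 0.49. Clk3 read 8.09, 8.16 and 8.03 in the controls and 9.01, 8.82 and 8.75 at 4 h. Srsf11 rose by 0.27, while Srsf10 and Srsf3 fell by 0.59 and 0.36. Each of these 3 SR genes had another probe set with the opposite sign, at -0.17, 0.13 and 0.19, none of which passed. All other probe sets of Srsf3 fell, by 0.28 to 0.86, and passed. No second probe set of Srsf10 or Srsf11 passed. Srsf11 passed when AICAR 4 h replicate 1 was left out but not when any other of the 6 arrays was (0.25 to 0.30). Of 17 hnRNPs and core splicing factors, only Hnrnpdl (-0.29) and Hnrnpl (-0.32) passed the test (11.8%, beside 12.1% of all genes). Hnrnpdl did not pass without control replicate 1 or 2 or AICAR 4 h replicate 2 or 3 (-0.29 to -0.24), nor Hnrnpl without control replicate 2 or 3 or AICAR 4 h replicate 2 or 3 (-0.33 to -0.27). The other probe sets of Hnrnpdl fell by 0.48, 0.52 and 0.58 and passed when tested singly.

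**Figure D2:**
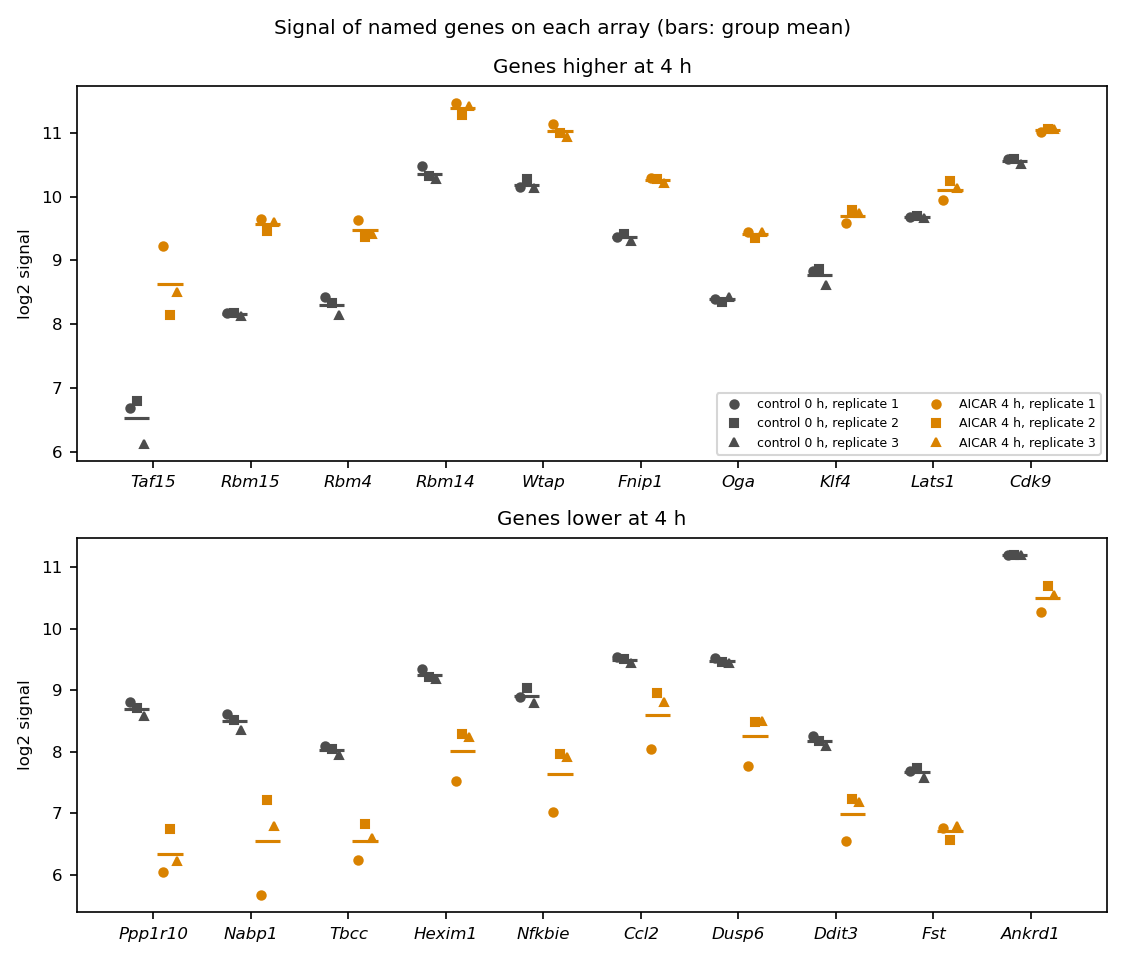
Log2 signal of 20 named genes on each of the 3 control arrays (grey) and the 3 AICAR 4 h arrays (orange), with a bar at each group mean and 1 marker shape per replicate number. The labels do not say what that number marks, and the main fit pairs no samples by it. The groups do not overlap for any of these genes, all picked from those that passed the test. Of the 1564 that passed, 1545 had groups apart, as had 29.5% of all genes tested. AICAR 4 h replicate 1 is the lowest of the 4 h arrays for 9 of the 10 genes that fell.

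Nearly as many NF-kB targets fell as did not pass the test. NF-kB is the transcription factor of inflammatory signalling; it drives chemokine genes and also the genes of its own inhibitors, which end the response. Of 21 tested targets, 10 fell and 0 rose, against 6.9% and 5.18% of all genes, and the list median was -0.36. Among the inhibitors, Nfkbie, which encodes IκBε, fell from 8.89, 9.04 and 8.79 to 7.02, 7.97 and 7.91. Its difference of -1.27 ± 0.17 (SE; limma adjusted p = 0.00011) was the largest of the list, and its second probe set fell by 0.85. Nfkbia, which encodes IκBα, fell from 10.34, 10.26 and 10.17 to 9.29, 9.81 and 9.91, by 0.59, and Tnfaip3, which encodes the deubiquitinase A20, fell by 0.75. Among the chemokines, Ccl2 fell from 9.54, 9.50 and 9.44 to 8.04, 8.96 and 8.81, by 0.89. Cxcl10 fell by 0.48, Ccl7 by 0.59 and Cxcl1 by 0.65, the last from a mean of 5.65 to 5.0, below the background level. Ptgs2, the inducible prostaglandin synthase, fell by 0.92 from 10.18, 10.26 and 10.44 to 9.39, 9.39 and 9.33, and its other probe set read 0.08. Traf1, a signalling adaptor, fell by 0.77, and its second probe set read -0.14 without passing. Csf1, the macrophage growth factor, fell by 0.79 in its brightest probe set. A further Csf1 probe set fell by 0.89 and others rose by 0.31 and 0.41, all past the test when tested singly. The number that fell lay between 8 and 12 under all the alternatives other than array weights. Traf1 did not pass without control replicate 1 (-0.71) or 2 (-0.62), nor Cxcl10 without control replicate 1 (-0.45), control replicate 2 (-0.44) or AICAR 4 h replicate 1 (-0.36). Nfkbia, Ccl7, Cxcl1 and Traf1 were named after their values were seen.

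The promoters of 4 of these genes are shown because they hold the NF-kB motif in the 250 bases before the RefSeq start site. The motif searched, on both strands, was GGGA and CC with any 4 bases between them, matches are in capitals and overlapping matches are merged. Each is written 5′ to 3′ on the gene's own strand, from RefSeq on GRCm38.p6: Nfkbia at chr12:55492648-55492897 (minus strand), Cxcl1 at chr5:90890995-90891244 (plus strand), Cxcl10 at chr5:92348890-92349139 (minus strand) and Csf1 at chr3:107760470-107760719 (minus strand).
Nfkbia: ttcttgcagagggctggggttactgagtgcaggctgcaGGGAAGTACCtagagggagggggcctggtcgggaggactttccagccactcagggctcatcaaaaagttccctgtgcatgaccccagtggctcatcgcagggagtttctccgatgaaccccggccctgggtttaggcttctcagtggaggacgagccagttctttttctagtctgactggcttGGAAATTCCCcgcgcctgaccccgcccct
Cxcl1: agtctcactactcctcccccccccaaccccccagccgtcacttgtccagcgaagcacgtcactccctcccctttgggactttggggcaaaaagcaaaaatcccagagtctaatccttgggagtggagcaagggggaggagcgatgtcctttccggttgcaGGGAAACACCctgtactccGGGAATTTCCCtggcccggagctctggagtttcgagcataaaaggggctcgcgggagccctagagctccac
Cxcl10: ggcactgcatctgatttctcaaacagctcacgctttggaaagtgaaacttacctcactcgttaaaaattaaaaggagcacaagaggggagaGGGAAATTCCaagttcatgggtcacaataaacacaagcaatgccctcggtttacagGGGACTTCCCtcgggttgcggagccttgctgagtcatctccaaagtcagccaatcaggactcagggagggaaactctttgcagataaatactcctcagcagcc
Csf1: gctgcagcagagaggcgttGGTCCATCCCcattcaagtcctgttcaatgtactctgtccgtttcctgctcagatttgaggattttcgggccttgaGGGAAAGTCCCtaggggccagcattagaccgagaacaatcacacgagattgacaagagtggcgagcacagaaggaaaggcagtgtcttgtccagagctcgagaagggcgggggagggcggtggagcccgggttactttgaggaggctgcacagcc

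The matches nearest the start lay 29 bases upstream in Nfkbia, 70 in Cxcl1, 103 in Cxcl10 and 154 in Csf1. These genes were chosen because they hold a match: of the 10 targets that fell, 8 have a window in the table and 5 of those hold the motif, the fifth being Tnfaip3. Nfkbie, the gene of the list with the largest fall, holds none in its window, nor do Ptgs2 and Traf1. Over the whole list 10 of 16 genes with a window hold it. The motif is common, since 17.6% of all 32851 windows of this length and 25.9% of the 10355 tested genes with a window hold it. It was no more frequent among all the genes that fell (26.2% of 736) than among those that rose (26.9% of 543). It was 1 of 20 motifs searched for in these windows.

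Immediate early genes moved both ways, and more feedback genes of ERK signalling fell than rose. Immediate early genes answer stimuli within minutes, and the ERK kinase cascade is shut off by phosphatases and other genes that it induces. Of 25 immediate early genes, 5 rose and 8 fell, beside 5.18% and 6.9% of all genes. Gadd45b, a stress sensor, fell from 10.01, 10.16 and 10.06 to 8.84, 8.76 and 9.02, by 1.21 ± 0.14 (SE; limma adjusted p = 2.98e-05). Fosl2, an AP-1 subunit, fell by 0.86, and Ier2 by 0.56. Among those that rose, Klf4, a Krüppel-like transcription factor, went from 8.84, 8.87 and 8.62 to 9.58, 9.79 and 9.74, by 0.92 ± 0.10 (SE; limma adjusted p = 1.45e-05), and Klf6 rose by 0.48. Klf2 (0.47), Atf3 (0.58) and Nr4a1 (0.27) also rose and were named after their values were seen. The balance turned in a fit of these groups alone, where 3 rose and 2 fell, and without control replicate 1, where 5 rose and 4 fell. The number that fell was 5 without control replicate 2 and 4 without AICAR 4 h replicate 1, and 3 rose without control replicate 2 or 3 or AICAR 4 h replicate 1 or 2. Klf2 did not pass without control replicate 2 or 3 or AICAR 4 h replicate 2 or 3 (0.32 to 0.47), Nr4a1 without control replicate 1 or 2 or AICAR 4 h replicate 1 or 2 (0.24 to 0.27), and Atf3 without control replicate 3 (0.48) or AICAR 4 h replicate 1 (0.50).

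Of 20 ERK feedback genes, 7 fell and 1 rose, beside 6.9% and 5.18% of all genes, with a median of -0.27, and 4 fell without control replicate 1, control replicate 2 or AICAR 4 h replicate 3. Dusp6, the phosphatase that inactivates ERK in the cytoplasm, fell from 9.52, 9.45 and 9.44 to 7.77, 8.49 and 8.5, by 1.22 ± 0.16 (SE; limma adjusted p = 9.61e-05). Dusp4, a nuclear phosphatase of the same family, fell from 8.44, 8.32 and 8.10 to 6.70, 7.69 and 7.49, by 0.99. Both groups stood apart for these genes, and replicate 1 was again the lowest. Ereg, an EGF receptor ligand, fell by 0.65 and Phlda1 by 0.47. Hbegf, another ligand of that receptor, fell by 1.30 (limma adjusted p = 0.0247) with unequal arrays at 4 h, 9.20, 7.98 and 8.27, and it passed when AICAR 4 h replicate 1 was left out but not when any other of the 6 arrays was (-1.38 to -1.04). Its second probe set fell by 0.65 ± 0.08 (SE) and passed when probe sets were tested singly. Dusp10, a phosphatase that prefers p38 and JNK, rose by 0.90 from 7.56, 7.44 and 7.35 to 8.51, 8.28 and 8.26, and Dusp16, of similar preference and outside the list, rose by 0.73.

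More TGF-beta and BMP pathway genes fell than rose. These growth factors signal through SMAD proteins, and their targets include the ID proteins, inhibitory SMADs and secreted antagonists. Of 25 tested, 9 fell and 1 rose, beside 6.9% and 5.18% of all genes, with a median of -0.23. Fst, the secreted activin antagonist follistatin, fell from 7.69, 7.74 and 7.58 to 6.76, 6.57 and 6.80, by 0.96 ± 0.13 (SE; limma adjusted p = 0.000109), and its second probe set fell by 0.92. Among ligands, Bmp4 fell by 0.74. Among intracellular regulators, Smad6, an inhibitory SMAD, fell from 7.49, 7.35 and 7.01 to 6.52, 6.26 and 6.41, by 0.88, and Tgif1, a SMAD corepressor, fell by 0.74. Skil, another corepressor, was the gene that rose, by 0.35.

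The Hippo pathway restrains growth through the kinases LATS1 and LATS2, which with their MOB1 cofactors inactivate the coactivators YAP and TAZ. Of 21 tested Hippo genes, 3 rose and 0 fell, where 5.18% of all genes rose and 6.9% fell. Lats1 rose from 9.68, 9.69 and 9.67 to 9.95, 10.25 and 10.13, by 0.43 ± 0.07 (SE; limma adjusted p = 0.000714), and its other probe set rose by 1.24. The brightest probe set of Lats2 read 8.20, 8.14 and 8.29 in the controls and 8.31, 8.16 and 8.26 at 4 h, a difference of 0.03 that did not pass the test, while 2 dimmer probe sets of Lats2 rose by 2.11 and 1.63 and the fourth read 0.16. The mean of all 4 probe sets of Lats2 rose by 0.79. Mob1a and Mob1b rose by 0.41 and 0.33. Yap1 (0.13) and Wwtr1 (0.11), which encodes TAZ, did not pass, although a dimmer Yap1 probe set fell by 0.61.

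Of 19 YAP and TAZ targets, 4 fell and 0 rose, beside 6.9% and 5.18% of all genes, with a median of -0.13. Ankrd1, a nuclear ankyrin-repeat protein induced by YAP, fell from 11.19, 11.20 and 11.19 to 10.26, 10.69 and 10.55, by 0.70 ± 0.09 (SE; limma adjusted p = 0.000102). Its second probe set fell by 0.75. Gadd45a fell by 0.63, F3, the coagulation initiator tissue factor, by 0.53, and Ccn2, a matricellular growth factor, by 0.34. Ccn2 did not pass without control replicate 1 or 2 or AICAR 4 h replicate 1 or 3 (-0.34 to -0.24). The promoter of Ankrd1 is shown because it holds the TEAD motif, the site of the DNA-binding partners of YAP, at 210 and 123 bases before the start. The motif searched was GGAATG on both strands, in capitals in the 250 bases at chr19:36119845-36120094 (GRCm38.p6, minus strand, RefSeq).
Ankrd1: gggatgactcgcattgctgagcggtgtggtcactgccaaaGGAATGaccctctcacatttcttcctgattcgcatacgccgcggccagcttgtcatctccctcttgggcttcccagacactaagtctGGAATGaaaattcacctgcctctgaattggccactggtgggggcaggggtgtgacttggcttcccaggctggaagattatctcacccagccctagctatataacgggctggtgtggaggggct
Of the 3 targets that fell and have a window, only Ankrd1 holds the motif, and over the whole list 6 of 14 genes with a window hold it. It is held by 13.2% of tested genes with a window, 13.6% of those that fell and 12.2% of those that rose.

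**Figure D3:**
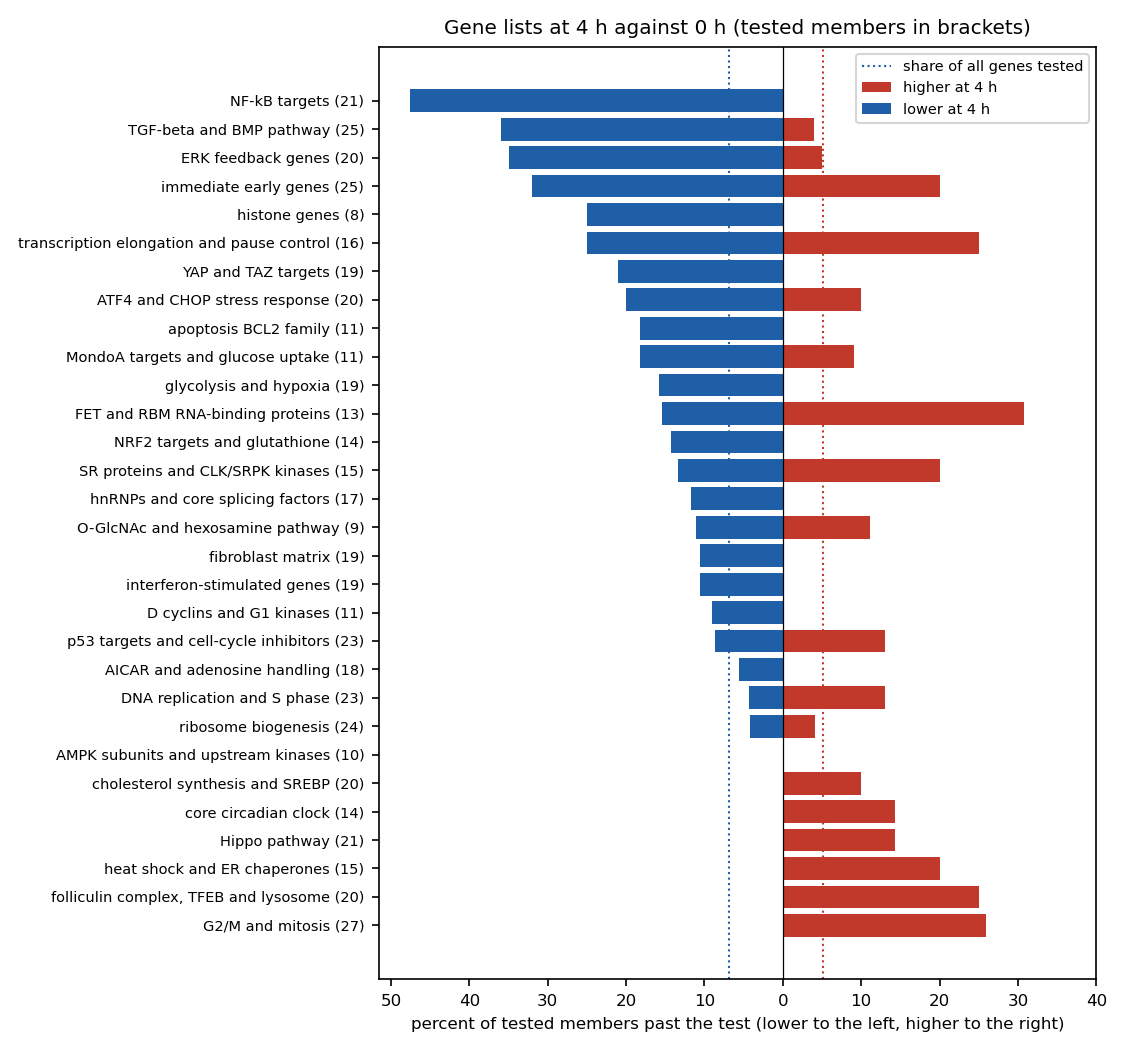
Percent of the tested members of each of 30 gene lists that rose (red, to the right) or fell (blue, to the left) at 4 h against 0 h in limma's test, with the number of tested members in brackets. Dotted lines mark the shares of all 12944 genes, 5.18% higher and 6.9% lower. The NF-kB list has the largest share of genes that fell, and the FET and RBM list the largest share that rose.

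Genes of the folliculin complex were among those that rose. Folliculin and its partners FNIP1 and FNIP2 act on the Rag GTPases at the lysosome, where they control mTORC1 and the lysosomal transcription factor TFEB. Of 20 tested genes of this group, 5 rose and 0 fell, where 5.18% of all genes rose and 6.9% fell. Fnip1 rose from 9.36, 9.42 and 9.31 to 10.29, 10.27 and 10.21, by 0.89 ± 0.07 (SE; limma adjusted p = 3.92e-07). This probe set is of the _s_ type, shared by several transcripts, and the other probe sets of Fnip1 read 0.97 and 0.32 without passing. Averaged over its probe sets, Fnip1 did not pass (0.73). Fnip2 rose from 8.18, 8.29 and 8.09 to 8.88, 9.0 and 8.82, by 0.71. Rragc, which encodes a Rag GTPase, rose by 0.39, Flcn by 0.37 and Uvrag, an autophagy and endosome gene, by 0.24. Flcn (0.30 to 0.42) and Uvrag (0.20 to 0.26) passed when AICAR 4 h replicate 1 was left out but not when any other of the 6 arrays was.

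Nutrient and nucleoside genes changed singly, where 5.18% of all genes rose and 6.9% fell. Oga, which removes the O-GlcNAc sugar from proteins, rose from 8.40, 8.34 and 8.43 to 9.44, 9.35 and 9.44, by 1.02 ± 0.12 (SE; limma adjusted p = 2.98e-05). It was the 1 gene that rose among 9 of the hexosamine pathway, and Nagk, a kinase that salvages N-acetylglucosamine, fell by 0.36. Of 11 MondoA targets and glucose uptake genes, Txnip, the glucose-responsive arrestin, rose by 0.47, and Pfkfb3, a glycolytic regulator, and Arrdc3, a relative of Txnip, fell by 0.75 and 0.61, the latter below the background level in both groups. Of 18 genes of AICAR and adenosine handling, only Slc29a2, a nucleoside transporter, passed (-0.39), at 5.10, 5.10 and 4.88 in the controls and 4.41, 4.74 and 4.77 at 4 h, around and below the background level. It did not pass without control replicate 1 (-0.35), control replicate 2 (-0.35) or AICAR 4 h replicate 1 (-0.27), nor did Txnip without control replicate 1 (0.40) or AICAR 4 h replicate 2 (0.47) or 3 (0.36). Adk, the adenosine kinase, read 11.55, 11.55 and 11.54 in the controls and 11.45, 11.47 and 11.42 at 4 h, a difference of -0.10 that did not pass. Of 10 AMPK subunit and upstream kinase genes, 0 passed in limma's test, in which 1 of them had an unadjusted p under 0.05.

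Stress and survival genes moved both ways. ATF4 and CHOP drive the integrated stress response to amino acid shortage and misfolded proteins. Of 20 such genes, 2 rose and 4 fell, beside 5.18% and 6.9% of all genes. Ddit3, which encodes CHOP, fell from 8.25, 8.18 and 8.09 to 6.55, 7.23 and 7.19, by 1.18 ± 0.16 (SE; limma adjusted p = 9.14e-05). Chac1, a glutathione-degrading target of CHOP, fell by 1.17 and Slc7a1, a cationic amino acid transporter, by 0.86, although another Slc7a1 probe set read 0.21. Cebpg and Sesn2 rose by 0.54 and 0.50. Of 15 heat shock and endoplasmic reticulum chaperone genes, 3 rose and 0 fell, beside 5.18% and 6.9% of all genes. Bag3, Dnajb9 and Herpud1 rose by 0.56, 0.45 and 0.40. Without control replicate 3, Dnajb9 (0.35) and Herpud1 (0.35) did not pass, nor did Herpud1 (0.34) without AICAR 4 h replicate 2. In the BCL2 family, Mcl1, which protects from apoptosis, fell by 0.47 and Bid, which promotes it, by 0.79. A second Mcl1 probe set rose by 0.36.

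Of 23 p53 targets and cell-cycle inhibitors, Pmaip1, Bbc3 and Mdm2 rose, by 0.65, 0.30 and 0.30, and Plk2 and Gadd45a fell, by 0.31 and 0.63. Together they were 21.7% of the list, beside 12.1% of all genes. Pmaip1, which encodes the death-promoting protein NOXA, read 8.48, 8.44 and 8.10 in the controls and 8.92, 8.93 and 9.14 at 4 h, a difference of 0.65 ± 0.10 (SE; limma adjusted p = 0.000213). Cdkn1a, the p53-induced inhibitor p21, read 8.93, 9.01 and 8.87 in the controls and 8.77, 9.24 and 9.14 at 4 h. Its groups overlapped, and the difference of 0.11 did not pass. A second Cdkn1a probe set of similar control mean (8.76) read -0.76 ± 0.36 (SE) and did not pass either. Bbc3 (0.27 to 0.31) did not pass without control replicate 1 or 2 or AICAR 4 h replicate 2 or 3, nor Mdm2 (0.27 to 0.30) without control replicate 1 or 3 or AICAR 4 h replicate 2 or 3, nor Plk2 without any of the controls (-0.34 to -0.28) or with AICAR 4 h replicate 1 left out (-0.16). SV40 T antigen binds p53, which limits these cells as a model of p53 activity.

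Of 27 genes of the G2 phase and mitosis, 7 rose and 0 fell, where 5.18% of all genes rose and 6.9% fell, and the list median was 0.16. The values were small, led by Plk4 (0.46), Cenpe (0.41), Mki67 (0.38) and Hmmr (0.34). Second probe sets of Plk4 and Cenpe read -0.51 and -0.92 with standard errors of 0.74 and 1.10. The number that rose was 3 or 4 when any 1 of the 6 arrays was left out. Of 23 S phase genes, Cdt1, Slbp and Cdc6 rose by 0.35, 0.34 and 0.30, and Ccne1 fell by 0.39. Mki67 did not pass without control replicate 1 (0.31) or AICAR 4 h replicate 2 (0.32), Hmmr without control replicate 2 (0.32) or AICAR 4 h replicate 3 (0.30), Plk4 without AICAR 4 h replicate 1 (0.40), and Ccne1 without control replicate 1 (-0.37), control replicate 2 (-0.33) or AICAR 4 h replicate 1 (-0.34). Of 8 histone genes tested, H1f2 and H2ax fell by 0.73 and 0.68.

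In the remaining lists by function, between 8.33% and 15.8% of the tested members passed, on both sides of the 12.1% of all genes. In cholesterol synthesis 2 of 20 rose (Cyp51 by 0.46 and Fdft1 by 0.24), in the circadian clock 2 of 14 rose (Per1 by 0.38 and Cry2 by 0.37), and in ribosome biogenesis, among 24 genes, Polr1c rose by 0.34 and Polr1b fell by 0.53. Among 19 genes of glycolysis and hypoxia, Adm, Pdk1 and Ndrg1 fell by 0.90, 0.59 and 0.37. Srxn1 and Osgin1 fell by 0.65 and 0.37 among 14 NRF2 targets, Timp3 and Dcn by 0.64 and 0.30 among 19 matrix genes, Ifi35 by 0.31, with Cxcl10, among 19 interferon-stimulated genes, and Ccnd2 by 0.26 among 11 D cyclins and G1 kinases. Of the markers of other cell types, only Krt19 (-0.28) and Acta1 (-0.30) passed. Fdft1 (0.20 to 0.26) and Dcn (-0.34 to -0.26) did not pass when any 1 of the 6 arrays was left out. At least 1 array also decided the calls of Per1 (0.30 to 0.39), Cry2 (0.31 to 0.36), Pdk1 (-0.58 to -0.49), Osgin1 (-0.31 to -0.30), Ifi35 (-0.30 to -0.25), Ccnd2 (-0.26 to -0.23), Acta1 (-0.32 to -0.24) and Krt19 (-0.26), with the values where the call was lost. Control replicate 1 was among those arrays for each of these 8 genes.

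Probe sets of the same gene did not always move together. Of 4876 genes with at least 2 tested probe sets, 742 were called by the brightest one, and in 110 of those every probe set passed in the same direction, 46 upwards and 64 downwards. In 30 genes, probe sets passed in opposite directions. Csf1 had 2 probe sets that fell, by 0.79 and 0.89, and 2 that rose, by 0.31 and 0.41. Dido1 had 1 at -1.19 and 1 at 0.41, Fosl2 had 1 at -0.86 and 1 at 0.47, and Mcl1 had 1 at -0.47 and 1 at 0.36. Prpf4b, a kinase of the splicing machinery that was named after its values were seen, had probe sets of similar control signal (9.26 and 9.32) that fell by 0.91 and rose by 0.59. Which transcripts these probe sets detect is unstated in the files.

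**Figure D4:**
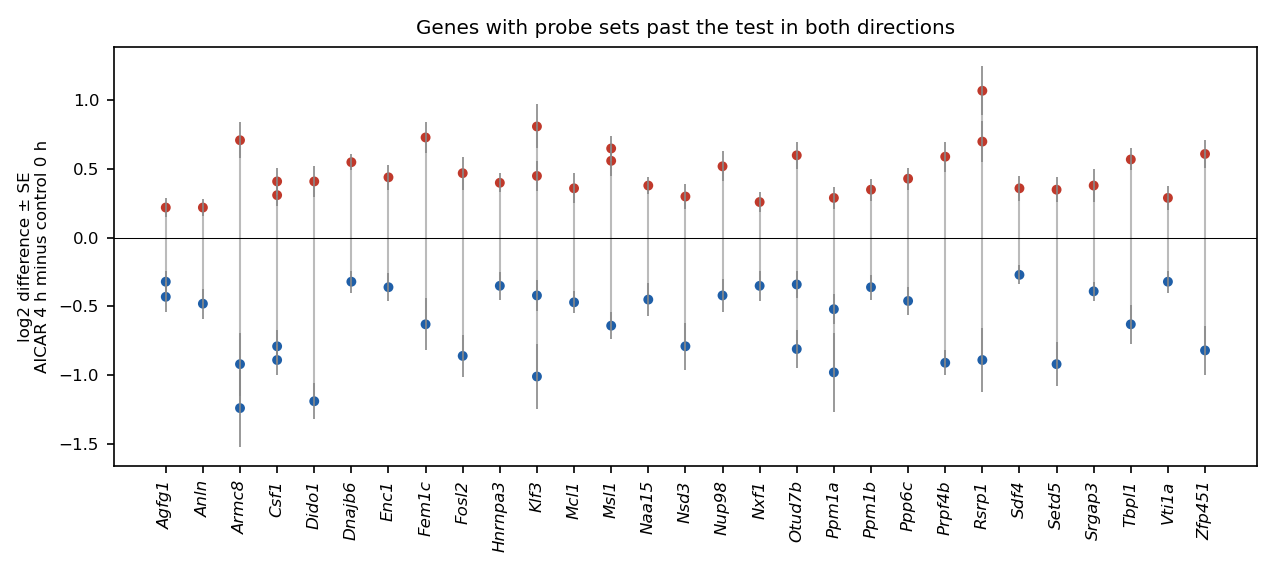
Log2 difference between AICAR 4 h and control 0 h, with its standard error, for every probe set past limma's test in 29 named genes whose probe sets passed in opposite directions (an unnamed Riken or Gm locus is left out). Red points rose and blue points fell.

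The 4 h arrays were also compared directly with those at neighbouring times. Against 2 h, 368 genes differed (2.84%), 181 higher and 187 lower at 4 h, a count that was 5 in a fit of these groups alone. Leaving out AICAR 2 h replicate 1 gave 116 and replicate 2 gave 91, while AICAR 4 h replicate 2 gave 100 and replicate 3 gave 139. Ppp1r10 was lower at 4 h than at 2 h by 0.92 ± 0.16 (SE; limma adjusted p = 0.00618), and its differences from 0 h were -0.40, -1.43, -2.36, -0.99, -1.16 and -0.98 at 1, 2, 4, 8, 12 and 24 h. Smad6 was lower at 4 h than at 2 h by 1.05, Tgif1 by 0.62 and Fst by 0.65, whereas Fnip1, Fnip2, Klf4 and Flcn were higher by 0.60, 0.72, 0.68 and 0.76. The differences between 4 h and 2 h did not pass for Nabp1 (-0.17), Dusp6 (-0.23), Ccl2 (-0.04) or Taf15 (0.41).

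Against 12 h, 3567 genes differed (27.6%), 1193 higher and 2374 lower at 4 h. Rbm14 stood above its 0 h level by 1.04 at 4 h and below it by 0.59 at 12 h (-0.59), and the direct difference was 1.63 (limma adjusted p = 4.27e-08). Rbm4 was higher at 4 h than at 12 h by 1.46, Clk3 by 1.07, Wtap by 0.85, Cdk9 by 0.54 and Fnip1 by 0.63. Nabp1 was 2.03 lower at 4 h than at 12 h (-2.03; limma adjusted p = 6.47e-06), when it differed from 0 h by 0.10. Ppp1r10 (-1.20), Nfkbie (-0.83) and Hexim1 (-0.71) were also lower at 4 h than at 12 h. Others went further in the same direction by 12 h, since Fst was higher at 4 h than at 12 h by 0.95 and H1f2 by 1.03, and Klf4 was lower at 4 h (-0.83). For Ddit3 (-0.01), Gadd45b (-0.25) and Dusp10 (0.03) the difference between 4 h and 12 h did not pass.

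**Figure D5:**
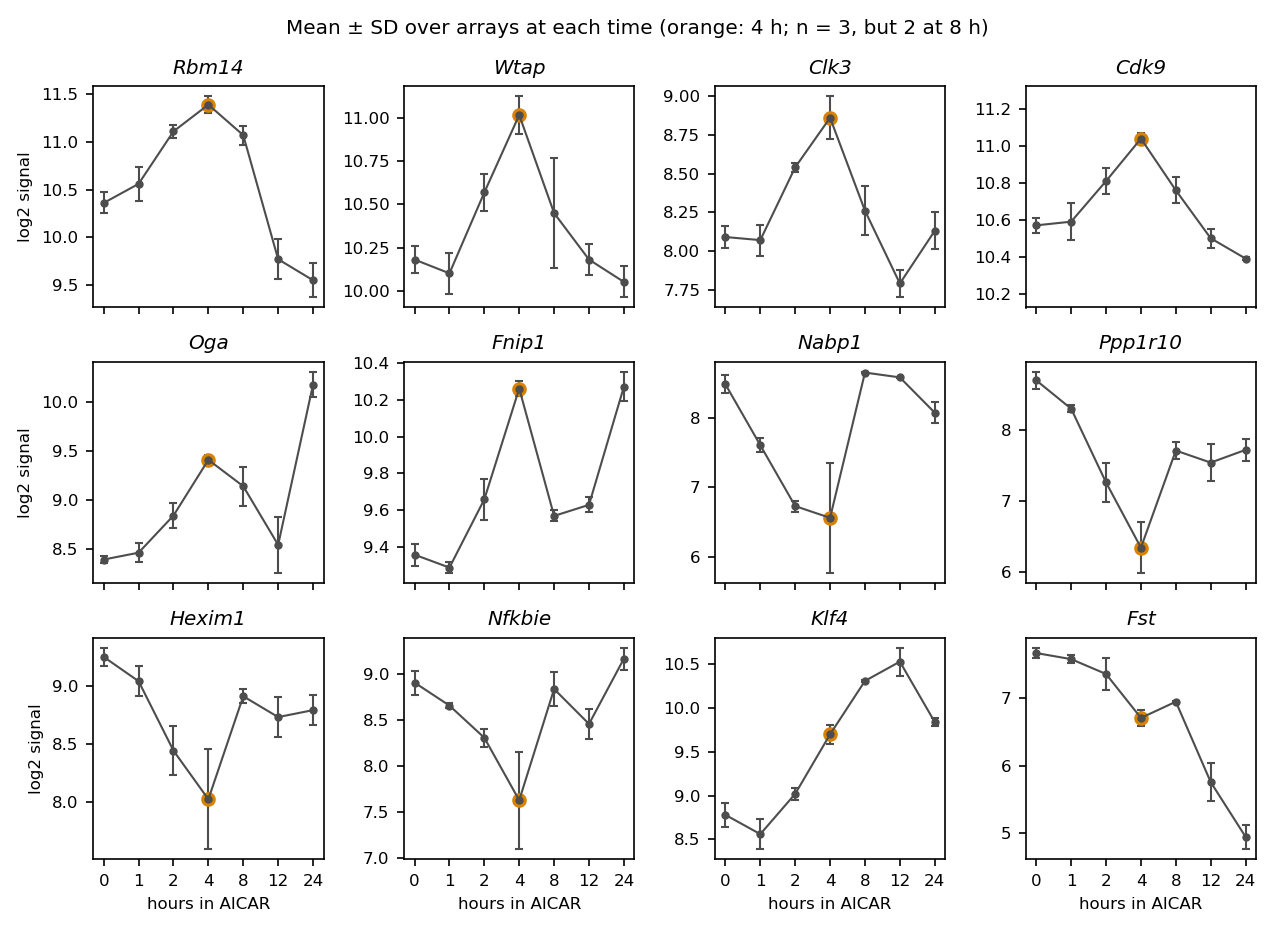
Mean log2 signal and SD of 12 named genes at 0, 1, 2, 4, 8, 12 and 24 h (3 arrays at each time, 2 at 8 h), with 4 h in orange, times evenly spaced and a separate vertical scale for each gene. Rbm14, Wtap, Clk3 and Cdk9 have their highest mean at 4 h, Nabp1, Ppp1r10, Hexim1 and Nfkbie their lowest, and Fst is lower at 12 h and 24 h than at 4 h.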

How the data were processed

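The deposited values are log2 signals in a table of 45141 probe sets by 20 arrays. Their log2 scale was taken from the values, whose highest is 13.5, with the authors' background correction, summarisation and normalization not given in the sources used here. Per the labels' protocols, total RNA was column-purified and the target carried biotin. Arrays have no read depth, and precision is limited by their number. Of the probe sets, 104 are array controls, 551 carry several symbols and 15692 are not listed in the platform annotation, controls included. A gene table of GRCm38.p6, which served only for naming, gave the current symbol of 28689 probe sets by gene ID. The probe set with the highest mean stood for each of 17097 genes, and 4153 genes were dropped because no group mean exceeded 4.81, the 40th percentile of all values.

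One limma 3.58.1 fit (R 4.3.3; lmFit and eBayes, 13 residual degrees of freedom) over all 20 arrays with a mean for each time gave the differences between groups, two-sided, with Benjamini-Hochberg adjustment over 12944 genes and a threshold of 0.05. Data were also simulated from the means and spreads of the 12944 genes. There the comparison of 4 h with 0 h recovered 98 of 100 genes changed by 1 and 80 of 100 changed by 0.5. Of the 183 genes called, 5 were unchanged ones. The simulated noise was independent between genes and equal on all arrays, whereas the weights fitted to the real arrays were unequal. These counts therefore check the fit and give no error rate for the real data. The gene lists (30 by function and 6 of cell type markers, 556 tested members) and the rule for named genes were chosen with earlier results of these data known. The rule took the 15 largest rises and falls with arrays apart, the 10 largest each way among genes whose probe sets all passed and among genes with a control mean of at least 9, up to 5 members of each list (otherwise 2, as values), and 11 genes of the study's subject, of which Atic has no single-symbol probe set here. The text names a selection of these and says where others were added after their values were seen. Lists are described by counts and medians, with no set test. Promoter sequences are RefSeq's on GRCm38.p6, matched by gene identifier for 10355 tested genes. They were searched for 20 motifs, and the motifs and promoters shown were chosen with the matches known.

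Alternatives were quantile normalization, median centring, 2 other filters, averaged probe sets, leaving out the _x_ and _s_ types, probe sets tested singly, robust trended variance, array weights, a replicate block, the interquartile range as a covariate, only the groups compared, stricter thresholds and leaving out each array. Plots used matplotlib 3.10.9 under Python 3.11.15.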

Additional observations from a re-analysis of the deposited data

Results flagged for a closer look

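These genes differed between 4 h and another time in AICAR by a direct limma test of the difference (adjusted p under 0.05), that is, their change from 0 h was not the same at both times. The values are log2 differences of 4 h minus the other time, and no explanation was tested. Of 141 named genes, 32 differed between 4 h and 2 h, 20 higher and 12 lower at 4 h, where 2.84% of all genes did. The named genes were mostly chosen by their change at 4 h from 0 h, and the same 4 h arrays enter this test. That choice raises their share, so it cannot be compared with the share of all genes. Among RNA-binding, splicing and elongation genes, those higher at 4 h were Rbm15 (0.47), Rbm4 (0.63) and Wtap (0.46). Lower values at 4 h within the RNA-binding, splicing and elongation genes were those of Dido1 (-0.59), Ppp1r10 (-0.92) and Srsf10 (-0.55). Among inflammatory and interferon genes, the 1 gene lower at 4 h was Nfkbie (-0.67). The immediate early and ERK feedback genes with higher values at 4 h were Dusp10 (0.57), Dusp16 (0.52), Klf2 (1.07) and Klf4 (0.68). Among TGF-beta, Hippo, matrix and marker genes, those lower at 4 h were Fst (-0.65), Smad6 (-1.05) and Tgif1 (-0.62). For folliculin, nutrient and stress genes, higher values at 4 h were those of Cebpg (0.59), Cyp51 (0.38), Fdft1 (0.36), Flcn (0.76), Fnip1 (0.60), Fnip2 (0.72), Herpud1 (0.40), Oga (0.57), Pmaip1 (0.36), Rragc (0.35) and Sesn2 (0.41). Among folliculin, nutrient and stress genes, those lower at 4 h were Nagk (-0.32), Slc7a1 (-0.35) and Srxn1 (-0.49). Higher values at 4 h within the cell-cycle, clock, zinc-finger and other genes were those of Cdc6 (0.28) and Zfp367 (0.48). Among cell-cycle, clock, zinc-finger and other genes, those lower at 4 h were Polr1b (-0.48) and Tbcc (-0.63).

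Between 4 h and 12 h, 83 named genes differed, 53 higher and 30 lower at 4 h, where 27.6% of all genes did. These shares cannot be compared either, for the same reason. Among RNA-binding, splicing and elongation genes, those higher at 4 h were Ccnt1 (0.48), Cdk9 (0.54), Cirbp (0.42), Clk3 (1.07), Clk4 (0.56), Hnrnpdl (0.32), Prpf4b (0.84), Rbm14 (1.63), Rbm15 (0.98), Rbm4 (1.46), Srsf11 (0.36) and Wtap (0.85). The RNA-binding, splicing and elongation genes with lower values at 4 h were Dido1 (-0.84), Ell2 (-0.64), Hexim1 (-0.71), Nelfe (-0.31), Ppp1r10 (-1.20) and Srsf3 (-0.30). Among inflammatory and interferon genes, the 1 gene higher at 4 h was Csf1 (0.51). For inflammatory and interferon genes, lower values at 4 h were those of Ccl2 (-0.55), Ccl7 (-0.97), Cxcl10 (-0.56), Ifi35 (-0.68), Nfkbie (-0.83) and Traf1 (-1.65). Among immediate early and ERK feedback genes, those higher at 4 h were Atf3 (0.59), Dusp16 (0.31), Dusp6 (0.62), Ereg (0.49), Ier2 (0.48) and Klf6 (0.41). Lower values at 4 h within the immediate early and ERK feedback genes were those of Klf2 (-1.02) and Klf4 (-0.83). Among TGF-beta, Hippo, matrix and marker genes, those higher at 4 h were Ccn2 (0.44), Fst (0.95), Lats1 (0.22), Lats2 (0.65), Mob1b (0.35), Skil (0.22), Tgif1 (0.33), Wwtr1 (0.27) and Yap1 (0.27). The TGF-beta, Hippo, matrix and marker genes with lower values at 4 h were Bmp4 (-0.48), Cd14 (-0.52), Pparg (-0.40), Krt19 (-0.60), Runx1 (-1.15) and Timp3 (-0.99). Among folliculin, nutrient and stress genes, those higher at 4 h were Bag3 (0.50), Cebpg (0.27), Cyp51 (0.43), Flcn (0.49), Fnip1 (0.63), Fnip2 (0.57), Herpud1 (0.65), Oga (0.87), Sesn2 (0.76) and Uvrag (0.37). For folliculin, nutrient and stress genes, lower values at 4 h were those of Arrdc3 (-0.42), Bid (-0.70), Nagk (-1.13), Ndrg1 (-0.83), Pdk1 (-1.27), Pmaip1 (-0.51), Srxn1 (-1.22) and Txnip (-0.69). Among cell-cycle, clock, zinc-finger and other genes, those higher at 4 h were Cdc6 (0.69), Cdt1 (0.30), Cenpe (0.72), Cep295nl (1.00), Cry2 (0.43), H1f2 (1.03), Hmmr (0.43), Mki67 (0.35), Per1 (0.34), Polr1c (0.28), Slbp (0.30), Zbtb7a (0.40), Zc3h12c (1.05), Zfp367 (0.58) and Zfp948 (0.77). Lower values at 4 h within the cell-cycle, clock, zinc-finger and other genes were those of Nabp1 (-2.03) and Tbcc (-0.85).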

How the results depend on the processing

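For genes changed, higher and lower at 4 h against 0 h, an adjusted p under 0.01 left 751, 349 and 402, and a 2-fold change 46, 10 and 36. Quantile normalization gave 1041 higher, median centring 337 higher, and the interquartile range covariate 1221 higher. Array weights by limma's default method stopped without converging, gave AICAR 4 h replicate 3 a weight of 17.7, and called 7476, of them 3322 higher and 4154 lower. Weights fitted gene by gene, added after that output was seen, gave the same array 4.58, and called 5212, 2102 higher and 3110 lower. Leaving out 1 array gave 904 to 1399 changed, 417 to 603 higher and 410 to 982 lower. For 4 h against 2 h, the 368 genes became 762 with quantile normalization, 129 with median centring, 226 with the mean of all probe sets, 885 with the covariate, 5738 and 3785 with the default and gene-by-gene weights, 5 with only the groups compared, 89 under 0.01, 2 at 2-fold and 91 to 534 without 1 array. For 4 h against 12 h, the 3567 genes became 7086 and 6005 with the weights, 164 at 2-fold and 2676 to 3953 without 1 array. Where no construction of the alternative shows it, the cause was not tested.

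With the replicate block, 2428 genes changed, 1466 of them lower, and 990 differed between 4 h and 2 h. The deviations of same-numbered control and 4 h arrays correlated at 0.02, -0.13 and -0.08, and the labels do not say what the number marks. By the default weights replicate 3 was the lowest-weighted array at 0, 1, 2, 12 and 24 h (0.306 to 0.497). Cd14 (-0.27), a macrophage marker that did not pass in the fit without it, passed with the block.

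Of the called genes named in the text, several had the opposite sign in their probe set with the least change in the called direction. These were Cdk13 (-0.60), Cdk9 (-0.05), Cenpe (-0.92), Klf6 (-0.25), Plk4 (-0.51), Prpf4b (-0.91) and Srsf11 (-0.17) against a positive main value, and Csf1 (0.41), Dido1 (0.41), Fosl2 (0.47), Mcl1 (0.36), Ptgs2 (0.08), Rbm15b (0.13), Slc7a1 (0.21), Srsf10 (0.13), Srsf3 (0.19) and Srxn1 (0.14) against a negative one. Among genes not called, Yap1 (-0.61), Cdkn1a (-0.76) and Wwtr1 (-0.41) had such a probe set against a positive main value, and Vim (0.02) against a negative one. With the mean of all probe sets, the called genes Cdk13 (-0.02), Cenpe (-0.26), Plk4 (-0.02) and Prpf4b (-0.01) changed sign.

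Named genes also lost their call at the same sign. In a fit of only the groups compared these included Nfkbia (-0.59), Ier2 (-0.56), Bid (-0.79), Chac1 (-1.17) and Neat1 (-0.96), with median centring Cdc6 (0.26), Mob1b (0.28) and Polr1c (0.30), and with the mean of all probe sets Cdk9 (0.21), Dido1 (-0.21), Fosl2 (-0.19) and Mob1a (0.26). Of 141 named genes, 57 kept their result in every alternative run gene by gene, and 40 lost a call without at least 1 array. The 57 include genes not called in the main fit that stayed uncalled, whatever their sign. Stricter thresholds were not among the runs for single genes. Signals below the background level of 5.08 carry little information on a change.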

Other observations

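Zinc-finger transcription factor genes, a family that holds many repressors, stood out among the rises and were looked at after their values were seen. Of 308 tested genes with a Zfp number or a Zbtb, Zscan or Zkscan symbol, 58 rose (18.8%) and 22 fell (7.14%), beside 5.18% and 6.9% of all genes tested, and their median difference was 0.04. Zfp948 rose from 8.30, 8.15 and 7.84 in the controls to 9.85, 9.07 and 9.18 at 4 h, by 1.27 (limma adjusted p = 0.000109). Zfp367 rose from 9.23, 9.11 and 9.0 to 10.51, 10.00 and 10.01, by 1.06, and Zbtb7a by 1.10, although another probe set of Zbtb7a read 0.08 and one of Zfp948 read 0.06, and the averaged probe sets of Zbtb7a did not pass (0.44). The probe sets at 0.08 and 0.06 were below the background level in both groups. Probes of this family can match several of its members, and their part in the result was not tested.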
